A study of Homo sapiens with 6 samples.

Results

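Secretory granules with a dense core are the compartment in which neuroendocrine cells store peptide hormones. The granins (chromogranins and secretogranins) fill the granule core, prohormone convertases and carboxypeptidase E cut and trim the precursors inside it, and release waits for a stimulus. Outside neurons and endocrine cells many of these genes are held down by REST, a repressor that binds neuron-restrictive elements in DNA. Several of their promoters carry a cyclic AMP response element, the site bound by CREB-family factors.

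The 9 genes described here are SCG2, CHGA, CHGB, VGF and SCG5 (granins and granin-like proteins), PCSK1 and CPE (processing enzymes), GAL (the galanin precursor) and UCHL1 (a neuronal ubiquitin hydrolase used as a neuroendocrine marker), of 58336 genes in the count tables. They were chosen by gene family around SCG2, which was selected on its log2 fold change, among the largest rises in the comparison of these same libraries. Their values in that comparison are therefore given as a description, with no test, and support nothing. With any count in any library there were 8 of the 9, CHGA being the exception, and 7 passed the filter on low counts.

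The libraries came from 12Z, an established human line of endometriotic epithelial cells, so every value stands for 1 line. One group (siBRG1, n = 3) received an siRNA against SMARCA4, the gene of the SWI/SNF ATPase BRG1, and the other (control, n = 3) a non-targeting siRNA. Both were transfected at 50 nM by lipofection without antibiotic, moved to low serum a day before harvest and lysed at 72 h, so the groups share the transfection and the low serum. An siRNA lowers its target and does not delete it. SMARCA4 stood at 60.5, 78.9 and 50.6 CPM in siBRG1 and at 244, 266 and 262 CPM in control (log2 fold change −2.03, SE 0.161, edgeR adjusted p = 0.000267). CPM is the usual count scaled to the library total. The extraction text also speaks of a drug or vehicle, which no label assigns to any of these libraries.

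Gene counts per library ran from 12391161 to 13369692 in siBRG1 and from 40228678 to 49720320 in control, so 3 counts stand for 0.219 to 0.235 CPM in siBRG1 and 0.0618 to 0.0765 CPM in control. The labels mark the 3 control libraries, and none of the siBRG1 libraries, as reused from a previous deposit, so for every value below the deposit and the siRNA cannot be told apart. Reads on no gene feature made up 3.85 to 4.20% of reads in siBRG1 and 12.8 to 13.6% in control, and reads mapped to several places 18.5 to 21.5% and 9.57 to 10.0%. The part of depth and library make-up in the results was not tested. The labels do not state whether the replicates are separate cultures; a p-value therefore reflects library-to-library spread alone, possibly technical. In bulk RNA, fewer cells carrying a transcript and less transcript per cell cannot be told apart. Library totals were scaled by TMM (trimmed mean of M-values) for CPM, and a log2 fold change is the siBRG1 level relative to control, given with its standard error (SE).

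Of the 9 members, 3 (SCG2, CPE and UCHL1) reached 1 CPM in all 6 libraries, GAL and VGF did so in all 3 control libraries but not in all 3 siBRG1 libraries, and SCG5, CHGB, PCSK1 and CHGA did so in all libraries of neither group. In 5 members every siBRG1 library lay above every control library, and in 2 every siBRG1 library lay below. The share of all genes without overlap was not computed, so these counts have no background. Nothing is read from them, also because this contrast chose the members. Over all 15830 genes tested, 72.6% were called at an adjusted p under 0.05, 36.1% as higher and 36.5% as lower. The 5 members that lay above were SCG2, SCG5, CHGB, PCSK1 and CPE, with SCG5, CHGB and PCSK1 on few counts. GAL and UCHL1 were the 2 that lay below, VGF overlapped between the groups, and CHGA had 0 counts.

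**Figure D1:**
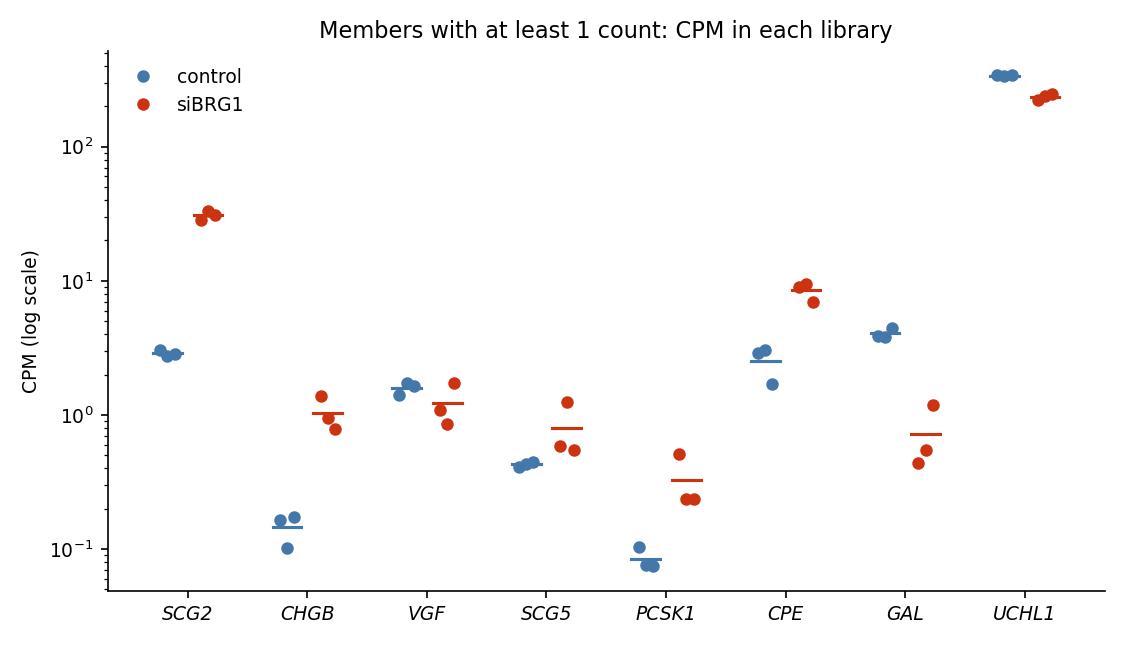
CPM on a log axis for the 8 members with at least 1 count, with 1 point per library and a line at the mean of the 3 libraries of each group. SCG2 separates the groups most widely, from 2.73 to 3.05 CPM in control to 28.5 to 33.2 CPM in siBRG1, while VGF overlaps between 1.42 and 1.73 CPM.

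SCG2 encodes secretogranin II, the precursor of secretoneurin and a core protein of dense-core granules. The gene (ENSG00000171951.4) lies on the minus strand of chromosome 2, at chr2:223596940-223602503 on GRCh38, with 2.719 kb of exon in 2 merged exons and no other annotated gene across it. It stood at 28.5, 33.2 and 31.2 CPM in siBRG1 and at 3.05, 2.73 and 2.84 CPM in control. Every siBRG1 library lay above every control library, and replicates within a group were close together, with coefficients of variation of 7.59% and 5.67%. The values rest on 391, 423 and 398 counts in siBRG1 and 148, 107 and 114 in control. The log2 fold change was 3.42 (SE 0.107), and 0.341% of tested genes had a larger one. Pooled over libraries the ratio was 10.7, with a 95% counting interval of 9.53 to 12.1. Counting intervals here cover counting error only. The authors' deposited table gives SCG2 a log2 fold change of 3.40 with a standard error of 0.115.

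CHGB, which encodes chromogranin B, a granule matrix protein (ENSG00000089199.9, plus strand, chr20:5911430-5925361, 4.535 kb of exon), was near the limit of detection in control. Its libraries stood at 1.38, 0.941 and 0.784 CPM in siBRG1, from 19, 12 and 10 counts, and at 0.165, 0.102 and 0.174 CPM in control, from 8, 4 and 7 counts. All siBRG1 values lay above all control values. The pooled ratio was 7.04 with a 95% counting interval of 3.99 to 12.8, and the log2 fold change was 2.78 (SE 0.475). CHGB passed the count filter only through siBRG1, where it is higher.

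CHGA, which encodes chromogranin A, a widely used serum marker of neuroendocrine tumours (ENSG00000100604.12, plus strand, chr14:92923080-92935293), had 0 counts in all 6 libraries. A count of 0 allows up to 3 counts over a group, which is 0.0765 CPM in siBRG1 and 0.0234 CPM in control. The chromogranin that marks neuroendocrine cells was thus not detected at this depth in the libraries in which SCG2 was higher.

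VGF, a granin-like precursor of several neuropeptides, first known as a nerve growth factor response gene (ENSG00000128564.6, minus strand, chr7:101162509-101165593, 2.704 kb of exon), overlapped between groups. It stood at 1.09, 0.862 and 1.73 CPM in siBRG1 and at 1.42, 1.73 and 1.64 CPM in control. The log2 fold change was −0.38 (SE 0.298) and ran from −0.70 to −0.18 with 1 library left out, and the pooled ratio was 0.771 with a counting interval of 0.551 to 1.06. Antisense reads across VGF numbered 22, 19 and 25 in control and 0, 1 and 1 in siBRG1.

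SCG5 encodes 7B2, a small chaperone that keeps the convertase PCSK2 inactive on its way to the granule (ENSG00000166922.8, plus strand, chr15:32641676-32697098, 2.196 kb of exon, with an antisense gene across its exons). It stood at 0.583, 1.25 and 0.549 CPM in siBRG1 and at 0.412, 0.433 and 0.448 CPM in control. The siBRG1 libraries lay above the control libraries, but 1 library carried most of the difference. The log2 fold change of 0.87 (SE 0.430) was 0.40 without siBRG1 replicate 2. The pooled ratio was 1.84 (95% counting interval 1.14 to 2.91), from 31 counts in siBRG1 and 55 in control. PCSK2, the enzyme that 7B2 serves, had 0 counts in 5 libraries and 0.0249 CPM in control replicate 3.

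PCSK1 encodes prohormone convertase 1/3, which makes the first cuts in many peptide precursors (ENSG00000175426.10, minus strand, chr5:96390415-96434143, 5.307 kb of exon). It had 7, 3 and 3 counts in siBRG1 and 5, 3 and 3 in control, or 0.510, 0.235 and 0.235 CPM against 0.103, 0.0765 and 0.0746 CPM. The pooled ratio was 3.86 with a wide counting interval of 1.59 to 9.51, and the gene was too low to be tested. Antisense reads across PCSK1 numbered 11, 9 and 5 in control, more than its sense reads in each of those libraries. The convertase was therefore barely detected in either group.

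CPE encodes carboxypeptidase E, which trims basic residues from the cut ends of peptides and also serves as a sorting receptor (ENSG00000109472.13, plus strand, chr4:165361194-165498320, 2.958 kb of exon). It stood at 9.03, 9.49 and 6.90 CPM in siBRG1 and at 2.92, 3.03 and 1.69 CPM in control. The groups did not overlap, and in both groups replicate 3 was the lowest. The log2 fold change was 1.73 (SE 0.186), and the pooled ratio was 3.30 with a counting interval of 2.83 to 3.86. The authors' deposited table gives 1.70 with a standard error of 0.200.

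GAL encodes the precursor of galanin, a neuropeptide (ENSG00000069482.6, plus strand, chr11:68683779-68691175, 1.300 kb of exon). It stood at 0.437, 0.549 and 1.18 CPM in siBRG1, from 6, 7 and 15 counts, and at 3.89, 3.82 and 4.48 CPM in control, from 189, 150 and 180 counts. All siBRG1 libraries lay below all control libraries, and siBRG1 replicate 3 stood apart from the other two. The log2 fold change was −2.50 (SE 0.276), and 3.04% of tested genes had a lower one. Pooled over libraries GAL was 5.68-fold lower, with a counting interval of 3.88 to 8.63. Galanin and secretogranin II, both granule cargo in endocrine cells, thus differed in opposite directions between the same libraries. Galanin's receptors were near or at the limit of detection: GALR3 had 0 counts, GALR1 lay at or under 0.146 CPM and GALR2 at or under 0.298 CPM in every library.

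UCHL1 encodes a deubiquitinating hydrolase that is abundant in neurons and, unlike the other members, is cytosolic and not granule cargo (ENSG00000154277.12, plus strand, chr4:41256413-41268455, 2.282 kb of exon, with the antisense gene UCHL1-AS1 across its exons). It stood at 224, 238 and 247 CPM in siBRG1 and at 341, 337 and 341 CPM in control. All siBRG1 libraries were lower, with a log2 fold change of −0.53 (SE 0.0393) and a pooled ratio of 0.694 (counting interval 0.678 to 0.710). Its control level lay at percentile 96.9 of the tested genes. UCHL1 made up 96.6 to 96.8% of the members' counts in control and 83.7 to 85.3% in siBRG1. SCG2 made up 0.781 to 0.863% in control and 10.7 to 11.7% in siBRG1. Without UCHL1 the members summed to 11.3 to 12.0 CPM in control and 41.5 to 46.5 CPM in siBRG1. Most of that difference is SCG2, the gene selected for its rise. It alone held 2.73 to 3.05 CPM in control and 28.5 to 33.2 CPM in siBRG1.

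**Figure D2:**
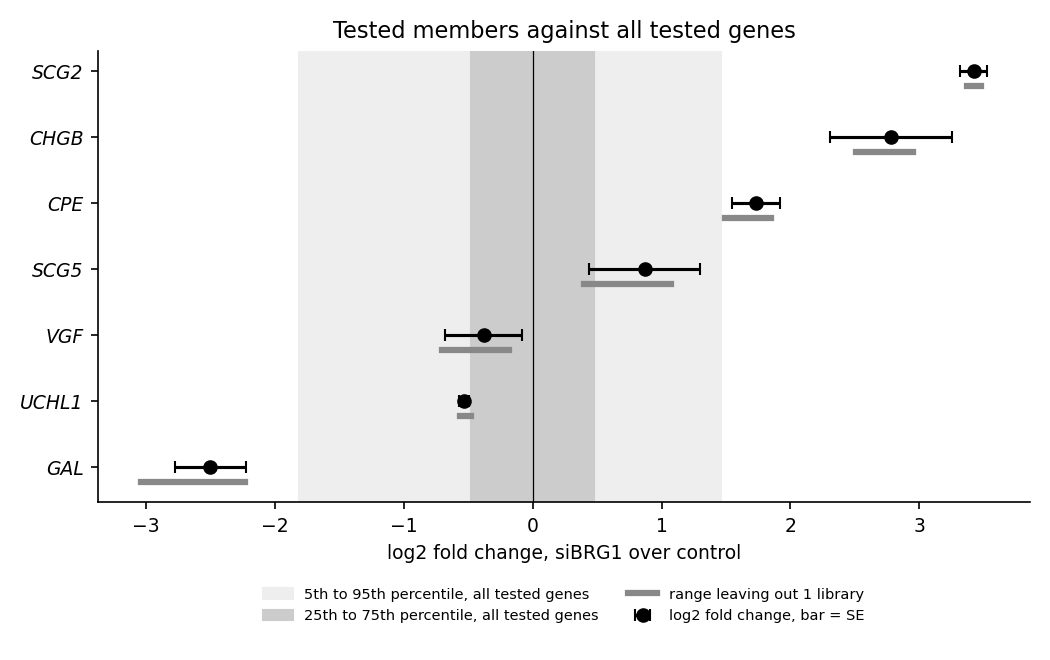
Log2 fold changes (siBRG1 over control) of the 7 tested members with SE, the range when 1 library at a time is left out (grey bars), and the spread of all 15830 tested genes (shaded). SCG2, CHGB and CPE lie above the 95th percentile of all genes (1.46), GAL lies below the 5th percentile (−1.81), and SCG5, VGF and UCHL1 lie between them.

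Levels were compared between genes as CPM per kb of annotated exon, which corrects for length. In control the order was UCHL1 (149 ± 0.880 CPM per kb, SD, n = 3), GAL (3.13 ± 0.276), SCG2 (1.06 ± 0.0599), CPE (0.862 ± 0.252), VGF (0.591 ± 0.0594), SCG5 (0.196 ± 0.00821), CHGB (0.0324 ± 0.00865) and PCSK1 (0.0160 ± 0.00299). The libraries of SCG2 and CPE overlapped, as did those of CPE and VGF, and the other neighbours did not. In siBRG1 the order was UCHL1 (103 ± 5.06 CPM per kb), SCG2 (11.4 ± 0.864), CPE (2.86 ± 0.467), GAL (0.554 ± 0.307), VGF (0.454 ± 0.165), SCG5 (0.362 ± 0.181), CHGB (0.229 ± 0.0686) and PCSK1 (0.0616 ± 0.0299). There the libraries of GAL and VGF overlapped, as did those of VGF and SCG5 and those of SCG5 and CHGB, and the other neighbours did not. Galanin, the most abundant peptide precursor among the members in control, gave that place to secretogranin II in siBRG1.

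**Figure D3:**
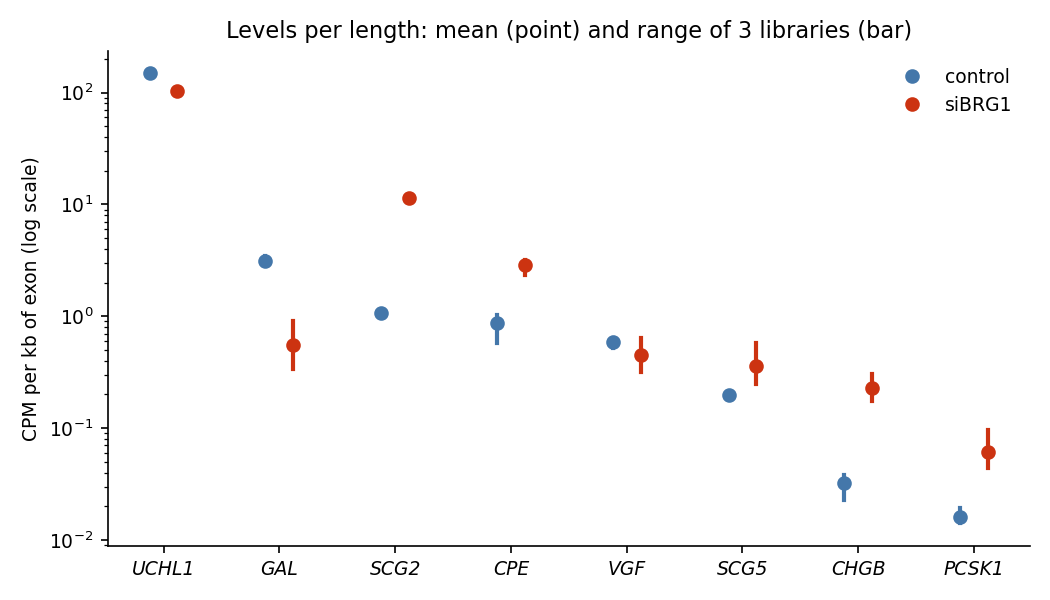
CPM per kb of exon on a log axis for the 8 members with any count, ordered by level in control, with the mean of 3 libraries as a point and their range as a bar. SCG2 is at 1.06 in control, below GAL, and at 11.4 in siBRG1, below UCHL1 alone, and GAL moves from 3.13 to 0.554.

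The 3 other tested protein-coding genes whose profile over the 6 libraries was most like that of SCG2 were FADS2, MMP2 and PDE7B. Likeness was the root mean square difference of centred log2 CPM, at 0.105, 0.114 and 0.127. Their log2 fold changes were 3.40 for FADS2, a fatty acid desaturase gene, 3.23 for MMP2, a gelatinase gene, and 3.34 for PDE7B, a cyclic AMP phosphodiesterase gene. With 2 groups this measure mostly picks genes with a difference of the same size.

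Promoters were read from RefSeq (GRCh38.p14), of which 6 of the 9 members had an entry (SCG5, CHGA, VGF, PCSK1, CPE and UCHL1, with a pair of starts for PCSK1). The palindromic cyclic AMP response element TGACGTCA was present within 250 bases upstream of the start in 3 of the 6. It is found in 1.65% of 35116 promoter windows of that length. The 3 matches are shown because this is the element known in the family; their genes were VGF, whose groups overlapped, PCSK1, which was barely detected, and CHGA, which had 0 counts. The element is in capitals, 5′ to 3′ on the gene's strand:
VGF, chr7:101165630-101165659: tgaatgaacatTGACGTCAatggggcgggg
PCSK1, chr5:96433307-96433336: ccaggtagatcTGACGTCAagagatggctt
CHGA, chr14:92923085-92923114: ggcggcaccgcTGACGTCAtttccggggtc
The first base of the element lies 79 bases upstream of the VGF start, 77 upstream of the PCSK1 start and 54 upstream of the CHGA start, counted from the RefSeq starts. The RefSeq starts of all 6 genes lie inside their GENCODE gene spans. The half-site TGACG (both strands, and contained in the full element), found in 21.2% of windows, was also present without the full element in CPE (2 matches) and SCG5 (1 match) and had no match in UCHL1. One of the CPE matches reads catttggctgtTGACGtggttccgagc (chr4:165378877-165378903). The half-sites of the REST element were searched as TTCAGCACC (0.288% of windows), with no match in the members' windows, and GGACAGC (4.76% of windows), matched once each in VGF and at the other PCSK1 start. The AP-1 site TGANTCA (6.57% of windows) had no match, and the E-box CACGTG (6.34% of windows) had 1, in VGF. A match is a description of letters and not a bound site.

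The rest of the pathway was described from lists of known genes, with no member among them. Together they held 197 genes, of which 130 were tested. By edgeR's quasi-likelihood test 61 of these rose and 41 fell, or 78.5% called against 72.6% of all genes, with a median log2 fold change of 0.13 against −0.01. Genes on more than 1 list, such as SNAP25, SYP, SCG3 and STC1, were counted once in these totals.

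Of 14 other granule proteins 7 were tested and these 7 rose, at a background of 36.1% higher (median log2 fold change 0.48 against −0.01 for all genes). That all tested genes rose depends on the processing. With reads of both strands counted 6 of 8 tested rose, with no count filter 8 of 12, and without siBRG1 replicate 1 7 of 9. None was called lower in these settings. NUCB1, a Golgi calcium-binding protein gene, rose most, from 79.9, 78.7 and 81.6 CPM in control to 182, 203 and 170 CPM in siBRG1, a log2 fold change of 1.21 (SE 0.0497) at adjusted p = 1.49e-18. PAM, the enzyme that amidates peptide ends in the granule, rose to 290, 312 and 289 CPM from 220, 210 and 207 CPM (log2 fold change 0.49, adjusted p = 9.78e-12). ATP6AP2, an accessory subunit of the proton pump that acidifies granules, stood at 175 to 184 CPM against 128 to 131 CPM (0.48, adjusted p = 1.31e-11). Most of the genes that rose, such as PAM, NUCB1, NUCB2, ATP6AP1 and ATP6AP2, are also widely expressed outside endocrine cells. The 7 that were not tested lay at or under 0.801 CPM in every library: SCG3, secretogranin III, had 1 count in 1 control library, SLC18A1 and RESP18 had 0 counts, and PTPRN, the IA-2 autoantigen gene, reached 0.314 CPM. SYP, synaptophysin, a vesicle membrane protein, was tested and low, at 1.60 to 1.88 CPM against 0.970 to 1.15 CPM.

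Of 16 other processing enzymes 14 were tested, of which 8 rose, 3 fell and CPM (the carboxypeptidase M gene), CPZ and PREP did not pass. The background was 36.1% higher and 36.5% lower. PCSK6, which fell, passed the count filter only through control, where it is higher. FURIN, the convertase of the constitutive secretory route, rose to 91.8, 82.4 and 84.9 CPM from 52.7, 58.4 and 56.9 CPM (log2 fold change 0.63, SE 0.0541, adjusted p = 2.49e-11). PCSK7, another convertase of that route, fell to 38.8, 43.1 and 35.4 CPM from 55.4, 56.5 and 58.6 CPM (log2 fold change −0.54, adjusted p = 1.26e-08). QPCT, which closes the amino end of peptides as pyroglutamate, rose by 0.78 (adjusted p = 5.98e-08). CPQ, a secreted carboxypeptidase gene, rose most, by 1.91 (SE 0.158, adjusted p = 1.06e-11). CPD, the CPE relative of the trans-Golgi, rose slightly, with 261 to 273 CPM in siBRG1 against 247 to 253 CPM in control (log2 fold change 0.10, adjusted p = 0.0162).

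Among 35 other peptide precursors 13 had 0 counts in all libraries, SST, VIP, POMC and TAC1 among them, and 12 were tested. Of those 4 rose, 5 fell and ADM2, EDN1 and SPX did not pass, at a background of 36.1% higher and 36.5% lower. APLN, which encodes apelin, rose to 18.3, 22.4 and 18.1 CPM from 3.83, 2.98 and 3.81 CPM (log2 fold change 2.46, SE 0.126, adjusted p = 2.44e-16). NPPB, the B-type natriuretic peptide precursor, fell to 31.4, 31.0 and 29.7 CPM from 157, 160 and 156 CPM (log2 fold change −2.36, SE 0.0513, adjusted p = 2.86e-25). ADM, which encodes adrenomedullin, and STC2, a stanniocalcin gene, fell, with log2 fold changes of −1.77 and −2.09 (adjusted p = 2.84e-23 and adjusted p = 6.21e-25). The list summed to 262 to 273 CPM in siBRG1 and 702 to 721 CPM in control, where ADM, STC2 and NPPB hold most of it. Precursors other than those of the members thus differed in both directions, as SCG2 and GAL did.

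Of 21 receptors of such peptides and their partners 5 were tested, of which 2 rose and 2 fell (36.1% and 36.5% of all tested genes). RAMP1 and RAMP2, which pair with calcitonin-family receptors, rose by 1.08 and 1.41 (adjusted p = 2.38e-10 and adjusted p = 8.03e-07). SSTR1, a somatostatin receptor, and SORT1, a sorting receptor for neurotensin and prosaposin, fell, with log2 fold changes of −0.75 and −0.53 (adjusted p = 1.23e-12 and adjusted p = 5.10e-13), and OGFR did not pass.

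Of 48 genes of regulated exocytosis and granule traffic 40 were tested, of which 19 rose, 13 fell and 8 did not pass (median log2 fold change 0.13). For comparison, 36.1% of all tested genes rose and 36.5% fell. Of those that rose, UNC13A and CPLX1 passed the count filter only through siBRG1, where they are higher. SNAP25, the neuronal fusion protein, rose most among those with a mean of at least 50 counts, to 4.81, 7.29 and 6.12 CPM from 1.56, 1.40 and 1.32 CPM (log2 fold change 2.08, SE 0.202, adjusted p = 3.30e-10). RAB27B, a small GTPase that docks granules, rose by 1.07 (adjusted p = 2.59e-14). EXPH5, a RAB27 effector, fell to 18.9, 20.5 and 16.2 CPM from 48.3, 49.7 and 51.0 CPM (log2 fold change −1.42, adjusted p = 3.24e-16). SYT4, DOC2B and RPH3A had 0 counts.

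REST itself fell, to 74.7, 78.0 and 73.2 CPM from 151, 152 and 156 CPM (log2 fold change −1.02, SE 0.0448, adjusted p = 7.10e-18), with every siBRG1 library below every control library. The authors' deposited table gives REST a log2 fold change of −1.05. REST, its complex and its regulators form a list of 19 genes, all tested. Among these 7 rose, 6 fell and 6 did not pass (median log2 fold change 0), at a background of 36.1% higher and 36.5% lower. Among corepressors, SIN3A fell (log2 fold change −0.43, adjusted p = 2.36e-10), RCOR1, the scaffold CoREST, fell by 0.19 (adjusted p = 0.00309), HDAC1 rose by 0.24 (adjusted p = 4.79e-06), and KDM1A missed the threshold (−0.08, adjusted p = 0.0905). HMG20B, a CoREST complex subunit, rose most among those with a mean of at least 50 counts, by 1.07 (adjusted p = 1.12e-17). CTDSP1 and CTDSPL, small phosphatases that act with REST, rose by 0.50 and 0.85 (adjusted p = 2.56e-10 and adjusted p = 6.22e-12).

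Of 32 further genes known as targets of REST in neurons 17 were tested, of which 10 rose, 6 fell and SCN3B did not pass. The shares over all tested genes were 36.1% higher and 36.5% lower. The median log2 fold change was 0.77 against −0.01 for all genes. Some passed the count filter only through the group where they are higher. UNC13A, RUNDC3A, SYN1, CPLX1 and SCN3B did so through siBRG1, NPTX1 and BSN through control. The split and the median therefore depend in part on the filter. CELSR3, a neuronal cadherin, rose to 13.5, 12.9 and 14.0 CPM from 3.71, 3.98 and 3.46 CPM (log2 fold change 1.86, SE 0.125, adjusted p = 1.10e-13). STMN3, a stathmin gene, also rose, by 0.85 (adjusted p = 1.23e-09). GDAP1, a mitochondrial protein gene, fell by 0.60 (adjusted p = 9.87e-07). With reads of both strands counted, the split was 7 higher and 8 lower of 20 tested. The balance of directions thus depends on the strand used, and also on the filter and the libraries kept. The number called, 16, was 9 with at least 50 counts required, 9 without control replicate 1 and 10 without control replicate 3, where 9, 12 and 12 were tested. Those calls split into 5 higher and 4 lower, 5 and 4, and 6 and 4. Without siBRG1 replicate 1 the split was 10 higher and 4 lower. Whether the lower REST level has a part in the level of SCG2 or of any gene here was not tested.

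CREB-family factors and known cyclic AMP targets held 20 tested genes, of which 8 rose, 6 fell and 6 did not pass. Among all tested genes 36.1% rose and 36.5% fell. NR4A2, which rose, passed the count filter only through siBRG1, where it is higher. PDE4B and PDE4D, cyclic AMP phosphodiesterases, rose by 2.40 and 1.12 (adjusted p = 5.60e-16 and adjusted p = 3.92e-11). INHBA, an activin subunit gene, and CREB5, a CREB relative, fell, with log2 fold changes of −2.25 and −1.58 (adjusted p = 2.61e-14 and adjusted p = 3.59e-10). Of UCHL1's relatives, UCHL3 and UCHL5 fell, with log2 fold changes of −0.53 and −0.52 (adjusted p = 0.00644 and adjusted p = 3.74e-08) beside −0.53 for UCHL1, and BAP1 rose by 0.52 (adjusted p = 1.31e-11). With reads of both strands counted, the value for UCHL3 was −0.28 (adjusted p = 0.322).

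**Figure D4:**
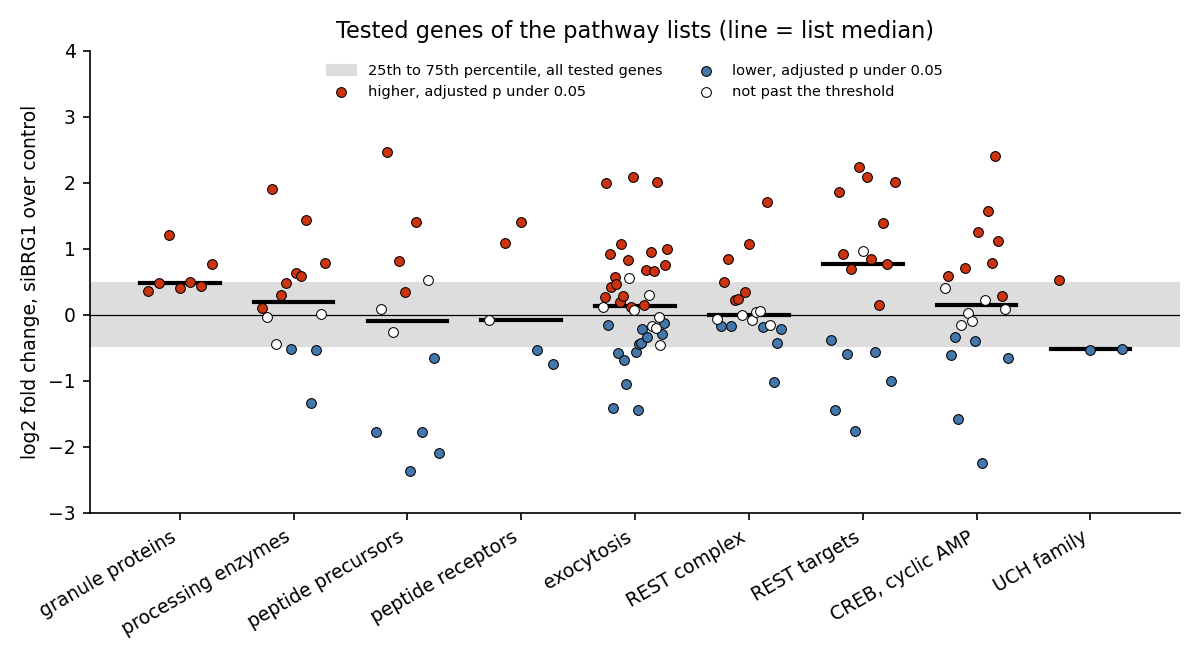
Log2 fold changes (siBRG1 over control) of tested genes of the 9 lists, 1 point per gene, filled where past an adjusted p of 0.05 and open where not, with each list's median as a line and the middle 50% of all tested genes shaded. The 7 granule protein genes lie above 0, and every other list has genes on both sides.

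Markers of other cells were read beside these results. Their counts stand against 36.1% higher and 36.5% lower among all tested genes. Of 17 markers that define neuroendocrine or neuronal cells 8 had 0 counts in all libraries (INSM1, NEUROD1, NEUROG3, DDC, ELAVL4 and RBFOX3 among them), and 5 were tested, with SNAP25, SYP and NCAM1 higher and ENO2 and ISL1 not past the threshold. Their summed level was 204 to 215 CPM in siBRG1 and 147 to 155 CPM in control, nearly all of it ENO2 and NCAM1. Of 8 simple epithelial markers, all tested, 4 rose, 2 fell and 2 did not pass, and they summed to 3490 to 3740 CPM in siBRG1 and 3940 to 4030 CPM in control. The keratin genes KRT7 and KRT19 fell, from means of 196 and 883 CPM in control to 36.9 and 609 CPM in siBRG1 (log2 fold changes −2.40 and −0.54, adjusted p = 9.51e-24 and adjusted p = 1.76e-13), while KRT8 stood at 1550 to 1700 CPM over the 6 libraries. EPCAM and CDH1, defining markers of epithelium, were low and rose, from means of 0.251 and 3.05 CPM to 1.61 and 5.87 CPM (log2 fold changes 2.63 and 0.93, adjusted p = 9.35e-07 and adjusted p = 6.10e-05). EPCAM passed the count filter only through siBRG1, where it is higher. Of 15 stromal, endothelial and immune markers 9 rose and 2 fell of 12 tested, and they summed to 4930 to 5280 CPM in siBRG1 and 2750 to 2950 CPM in control, mostly COL1A1 and COL3A1. The stromal matrix genes COL3A1, LUM and DCN rose by 2.46, 2.24 and 2.15 on the log2 scale (adjusted p = 3.37e-08, adjusted p = 6.03e-14 and adjusted p = 0.000296). CD14, a monocyte marker, rose from a mean of 4.08 to 9.39 CPM (adjusted p = 1.43e-08), and CDH5, an endothelial cadherin, stood at 1.57 to 2.48 CPM in siBRG1 against 0.373 to 0.586 CPM in control (adjusted p = 6.25e-06). CDH5 passed the count filter only through siBRG1, where it is higher. The 2 that fell were VWF, also endothelial, and THY1, a stromal marker. Their means went from 2.11 and 323 CPM in control to 1.29 and 287 CPM in siBRG1 (log2 fold changes −0.69 and −0.17, adjusted p = 0.0301 and adjusted p = 0.000178). PTPRC, an immune marker, did not pass. CD3E was at 0, and the endothelial marker PECAM1 and the macrophage marker CD68 reached 0.0784 and 0.235 CPM at most. The part of these markers in the members' values was not tested.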

How the data were processed

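RNA sequencing libraries of 12Z cells (3 siBRG1, 3 control) were analysed. Per the submitters' processing notes, reads were handled with cutadapt, Trim Galore, FastQC, STAR and DESeq2 on GRCh38.p12; versions and annotation release are not given in the sources used here. The authors deposited raw counts per gene for each library, unstranded and per strand, and 1 table of log2 fold changes with standard errors, used only where the text names it. Column 4, the larger strand in every library, was taken as sense. Reads assigned to no gene (no feature, several places, ambiguous or unmapped) took 27.7 to 30.3% of reads in siBRG1 and 28.5 to 29.5% in control and were left out. Of 58336 identifiers, 56888 matched GENCODE 29 with their version and 58216 without. All 197 pathway genes listed below had a match.

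Groups were compared with edgeR 4.0.16 (R 4.3.3): TMM, filterByExpr, robust quasi-likelihood fits on group, two-sided, Benjamini-Hochberg over 15830 genes, threshold 0.05. SE is the absolute log2 fold change over the square root of F. The fit was also run on simulated data with few changed genes and a single common dispersion. These data differ from that setting, so the run does not measure their error rate. Between replicates of a group, chi-square of the counts ran from 2.5 to 4.2 times its degrees of freedom, so none were merged. Ratios of pooled counts have exact 95% intervals. Motifs were searched on both strands in RefSeq promoters. Alternatives included DESeq2 1.42.0. Members and lists were chosen with earlier results of these data known. Named from each list were the largest rise and fall and the next 2 by size, among called genes with a mean of at least 50 counts; others were singled out after their values were seen. Some genes that this rule or the marker lists hold are not reported here.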

Additional observations from a re-analysis of the deposited data

Results flagged for a closer look

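Reads on the strand opposite to UCHL1 were counted outside the main measurement, and their level was higher in every siBRG1 library (2.04, 1.02 and 1.10 CPM) than in any control library (0.906, 0.790 and 0.547 CPM). They came to 28, 13 and 14 counts in siBRG1 and 44, 31 and 22 in control, or 0.428 to 0.912% and 0.161 to 0.266% of the sense counts of UCHL1. Over all genes the antisense share was 5.96 to 6.12% in siBRG1 and 6.14 to 6.18% in control. The difference was not tested.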

How the results depend on the processing

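Over 13 alternatives (unstranded counts, DESeq2 size factors, the DESeq2 test, no or a stricter count filter, protein-coding genes alone, a replicate block, and each library left out), the tested members that an alternative retained kept the sign of their log2 fold change. That of UCHL1 was −0.47 with unstranded counts. Leaving out 1 library gave 0.40 to 1.07 for SCG5 (siBRG1 libraries only, since SCG5 fails the filter without any 1 control library) and −3.04 to −2.23 for GAL; the cause was not tested. With the replicate block 11194 genes were called (11498 without) and 100 of the pathway genes (102 without). Same-numbered libraries did not deviate together (r = −0.0126, 0.0220 and 0.00898 across genes). Counting noise can hide a pairing, so these values cannot exclude one. The block moved no count by over 1.5 times. Of 429 values for 33 named genes, 428 kept their direction and call, the exception being UCHL3 with unstranded counts. Size factors shifted the median gene by −0.017 on the log2 scale. Depth limits SCG5, CHGB, PCSK1, GAL and VGF, with 31, 41, 13, 28 and 48 counts over the siBRG1 libraries, and CHGA, with 0. SCG5 and CHGB do not reach the stricter filter.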

Other observations

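Among the peptide precursors, 2 further neuropeptide genes, picked with their values known, were higher in siBRG1. NPY, which encodes neuropeptide Y, rose to 39.6, 40.8 and 42.0 CPM from 15.8, 16.2 and 14.5 CPM (log2 fold change 1.40, SE 0.0723, adjusted p = 3.01e-16). NMB, which encodes neuromedin B, rose to 9.18, 12.8 and 10.6 CPM from 5.99, 6.17 and 6.24 CPM (log2 fold change 0.82, adjusted p = 1.69e-06). The neural adhesion genes L1CAM and NCAM1 rose by 0.70 and 0.77 (adjusted p = 1.08e-12 and adjusted p = 6.04e-15). NPTX1 and TUBB3, neuronal genes on the list of REST targets, fell, with log2 fold changes of −1.76 and −1.01 (adjusted p = 0.0118 and adjusted p = 0.00787), from 0.572 to 0.969 CPM and 1.53 to 2.04 CPM in control. In siBRG1 they lay at 0 to 0.471 CPM and 0.392 to 1.41 CPM. NPTX1 passed the count filter only through control, where it is higher.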
